A study of Mus musculus with 36 samples.

Results

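Metallothioneins and the transporters that move zinc across cell membranes were followed through liver regeneration in young and old mice. The group holds 7 genes, taken by their symbols from the 21955 symbols of each count table: Mt1, Mt2, Mtf1, Slc39a14, Slc39a10, Slc30a1 and Slc30a10. All 7 passed the filter on low counts, which kept 13436 genes. The animals were C57BL/6JN mice, an inbred strain, of 4 months (young) or 18 months (old), with no other allele or agent named in the labels. Liver was taken before and at time points labelled 48, 72, 96, 120 and 240, for which the labels give neither a unit nor the way regeneration was induced. There were 12 groups with 3 libraries each from separate biological replicates, 36 in all. Total RNA of whole frozen liver was sequenced after removal of ribosomal RNA, so every value is a mixture over the cell types of the tissue.

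As background, metallothioneins are small cysteine-rich proteins that bind zinc and copper, and the liver is a main site of their synthesis. MTF1 is a transcription factor that senses free zinc and binds metal response elements, short motifs in the promoters of metallothionein genes and of Slc30a1. Proteins of the ZIP family (Slc39 genes) bring zinc into the cytosol, and those of the ZnT family (Slc30 genes) take it out of the cytosol. The ZIP protein of Slc39a14 also carries manganese and iron and is known for its induction in the liver during inflammation. The ZnT protein of Slc30a10 is known chiefly as an exporter of manganese.

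Promoter sequences are shown for the metallothionein pair and for both exporters, because these 4 members hold the core of the metal response element in the window searched. Each window of 300 bases runs from 250 bases before to 50 bases after the start site of the RefSeq entry (build GRCm38.p6) and reads 5′ to 3′ along the gene, which lies on the plus strand in all 4 cases. Capitals mark TGCACNC or TGCGCNC read on either strand, where N is any base. The windows lie at chr8:94178839-94179138 (Mt1), chr8:94172368-94172667 (Mt2), chr1:191906531-191906830 (Slc30a1) and chr1:185454598-185454897 (Slc30a10).
Mt1: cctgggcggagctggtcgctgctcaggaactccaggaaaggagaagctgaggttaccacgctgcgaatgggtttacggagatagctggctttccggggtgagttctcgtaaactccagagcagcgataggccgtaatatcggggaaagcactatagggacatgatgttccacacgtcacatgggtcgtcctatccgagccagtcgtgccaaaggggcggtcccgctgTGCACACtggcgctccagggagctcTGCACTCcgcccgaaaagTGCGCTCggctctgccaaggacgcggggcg
Mt2: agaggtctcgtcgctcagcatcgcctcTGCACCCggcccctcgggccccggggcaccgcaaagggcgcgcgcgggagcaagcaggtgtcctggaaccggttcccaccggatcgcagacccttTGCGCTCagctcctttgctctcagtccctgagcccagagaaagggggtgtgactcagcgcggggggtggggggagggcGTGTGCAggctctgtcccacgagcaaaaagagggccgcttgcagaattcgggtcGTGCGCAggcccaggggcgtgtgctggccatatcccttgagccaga
Slc30a1: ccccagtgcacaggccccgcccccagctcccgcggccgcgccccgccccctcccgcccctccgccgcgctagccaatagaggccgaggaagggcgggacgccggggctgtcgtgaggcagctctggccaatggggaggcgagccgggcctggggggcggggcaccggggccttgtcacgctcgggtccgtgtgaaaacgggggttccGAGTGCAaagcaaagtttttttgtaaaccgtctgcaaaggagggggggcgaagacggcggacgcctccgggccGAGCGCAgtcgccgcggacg
Slc30a10: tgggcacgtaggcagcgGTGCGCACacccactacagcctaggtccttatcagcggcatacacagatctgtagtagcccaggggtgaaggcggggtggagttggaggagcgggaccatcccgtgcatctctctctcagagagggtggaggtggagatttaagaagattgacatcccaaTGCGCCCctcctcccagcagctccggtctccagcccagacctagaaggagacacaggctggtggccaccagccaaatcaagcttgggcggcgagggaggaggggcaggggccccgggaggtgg

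The Mt1 window held 3 matches, the Mt2 window 4, the Slc30a1 window 2, and the Slc30a10 window 3, of which 2 overlap each other on opposite strands. Among the 32841 windows of the table, 25.7% held at least 1 match, 7.12% at least 2, 1.97% at least 3 and 0.518% at least 4. The window of Mtf1 and both windows of Slc39a10 held 0 matches. A match describes the letters only. Slc39a14 had no entry, so 6 of the 7 members were searched.

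In the GENCODE M21 annotation of GRCm38, Mt2 (chr8:94172664-94173568) and Mt1 (chr8:94179082-94180327) lie side by side on the plus strand. The gap between them is 5513 bases, with 0 annotated genes in it. Slc30a10 (chr1:185454848-185468762, plus) and Slc30a1 (chr1:191906767-191913247, plus) share chromosome 1 with Slc39a10 (chr1:46807544-46892852, minus). Mtf1 lies at chr4:124802104-124849800 on the plus strand and Slc39a14 at chr14:70303469-70351425 on the minus strand. Mt1 and Mt2 are close paralogs, and their counts are uncertain to the extent that reads fitting both were split or dropped. On the opposite strand, annotated genes overlap exons of Mt2, Mtf1, Slc30a1 and Slc30a10, and the use of strand in counting is not given in the sources used here, so reads of such pairs may not be told apart. The overlapping genes measured here were low, with at most 81 counts for 1110065P20Rik (over Mtf1), 9 for 1700034H15Rik (over Slc30a1) and 48 for Gm2061 (over Slc30a10).

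Libraries held between 2328233 and 6034446 counts. In 12 libraries, 1 in each group, 4 Y-linked genes together reached 177 to 321 CPM (counts per 1000000 counts of a library, after TMM scaling), against at most 0.212 CPM in the other 24. The labels give no sex, and the split is balanced over every comparison made here. The 11 hepatocyte markers measured, of 12 listed, summed to between 21648 and 33649 CPM in every library, so the defining markers of the labelled tissue were present. Library 2 of old mice at 48 stood at an extreme of other lists as well, with the lowest summed macrophage markers (309 CPM over 12 genes; median of all libraries 986 CPM) and the highest summed neutrophil markers (44.2 CPM over 9 of 10 listed genes; median 12.3 CPM). It also held the highest Mt1, Mt2, Slc39a14, Slc39a10 and Slc30a10 values of the series and the lowest Mtf1 and Slc30a1 values. Whether the cells behind those markers had a part in the member values was not tested.

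Levels between genes are compared per kilobase of exon in the GENCODE M21 annotation. Before regeneration in young mice the mean level was 69.7 CPM per kilobase for Mt2 and 60.2 for Mt1. Slc30a1 followed at 40.0 and Slc39a14 at 38.6 CPM per kilobase, then Slc30a10 at 15.2, Mtf1 at 4.88 and Slc39a10 at 2.14. In old mice at 48, Mt2 stood at 1369 CPM per kilobase and Mt1 at 377, against 75.5 for Slc39a14 and 41.6 for Slc30a1. The annotated exons of Mt1 together cover its whole span of 1246 bases, while those of Mt2 cover 588 of 905 bases. The order of Mt2 and Mt1 before, and the gap between them at 48, depend on these lengths. Without division by length, the young means before were 74.9 CPM for Mt1 and 41.0 CPM for Mt2. The old means at 48 were 470 CPM for Mt1 and 805 CPM for Mt2. The zinc-storing metallothioneins thus spanned the widest range of the 7 genes, and Mtf1 and Slc39a10 were the lowest throughout these groups.

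Mt2 rose at 48 in both ages. Its fitted level was 3.79 ± 0.87 log2 units above before in young mice (SE; adjusted p 0.00228, edgeR's quasi-likelihood test with Benjamini-Hochberg adjustment) and 2.38 ± 0.81 in old mice (adjusted p 0.0344). Mt1 rose at 48 in young mice by 2.19 ± 0.71 log2 units (adjusted p 0.0279). In old mice the Mt1 difference was 1.66 ± 0.69, which missed the threshold (adjusted p 0.0815). The call of Mt2 at 48 in young mice held without any 1 library (3.40 to 5.09). That in old mice was lost without library 1 or 3 before, or library 1 or 2 at 48 (1.84 to 2.87, adjusted p up to 0.143). The young call of Mt1 was lost without library 1 or 3 before, or library 1 or 2 at 48 (1.82 to 3.25, adjusted p up to 0.123). Without the libraries with Y-linked transcripts, the old difference of Mt2 (2.201) and the young difference of Mt1 (1.99) did not pass. The old call of Mt2 was also lost with no filter on low counts. Both calls were lost with a fit on the groups compared alone. Over the alternatives, the adjusted p reached 0.0721 for the old call of Mt2 and 0.0980 for the young call of Mt1. In young mice 2 of the 7 members passed the test at 48, where 21.9% of the 13436 genes tested did. The corresponding count in old mice was also 2 of 7, beside 24.1% of all genes. In whole tissue, a change in the share of cells that make a transcript and a change in the amount per cell cannot be told apart.

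The Mt2 values of young mice before were 17.9, 89.8 and 15.3 CPM, and at 48 they were 658, 604 and 436 CPM. Every young library at 48 was above every young library before. Among the 15 later young libraries, 13 were above the highest library before. The group mean was 41.0 ± 42.3 CPM before (SD, n = 3) and 566 ± 116 CPM at 48. At 72 the values were 358, 128 and 316 CPM and at 96 they were 326, 96.0 and 316 CPM. Both groups again lay wholly above the libraries before, with library 2 the lowest of each. Values were 114, 390 and 317 CPM at 120 and 38.3, 76.5 and 216 CPM at 240, where the range overlapped that before.

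The test called Mt2 in young mice at 72 as well (2.71 ± 0.83, adjusted p 0.0260). This call was lost without library 1 or 3 of young mice before or library 1 at 72 (2.33 to 4.01 over all 6 omissions, adjusted p up to 0.112), without the libraries with Y-linked transcripts (2.23), and with a fit on the groups compared alone (adjusted p 0.119). Differences of similar size at 96 (2.59 ± 0.83, adjusted p 0.118) and 120 (2.74 ± 0.83, adjusted p 0.147) did not pass. Each of the 2 passed in 1 of 9 alternatives. At these times few genes passed at all, with 1.4% of genes called at 96 and 0.581% at 120. At 240 the difference was 1.43 ± 0.80 (adjusted p 1). Over the 5 later time points together, Mt2 passed in young mice (adjusted p 0.0234). This call was lost without the libraries with Y-linked transcripts (0.0874), and without library 1 or 3 of young mice before or library 1 at 48 (up to 0.0783). Mt2 did not pass in old mice, where the p was 0.130.

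Before regeneration, the Mt2 values of old mice lay above those of young mice in these libraries. The old libraries held 93.0, 244 and 127 CPM, each above the 3 young libraries before. The mean was 3.78 times the young mean. This was the only time point at which Mt2 did not overlap between the ages, and 14.4% of all genes did not overlap there. The fitted difference of 1.92 ± 0.81 did not pass edgeR's test (adjusted p 0.628), in a comparison that called 0.0595% of genes. At 48 old libraries held 714, 1327 and 373 CPM, a range that enclosed the young one. Values were 368, 582 and 322 CPM at 72, 453, 122 and 207 CPM at 96, 272, 634 and 105 CPM at 120, and 50.8, 307 and 168 CPM at 240. From 96 onward the old groups overlapped the range before, and their mean was 1.68 times the mean before at 96, 2.18 times at 120 and 1.13 times at 240.

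The old mean of Mt2 was above the young mean at 6 of 6 time points. Averaged over them, the difference was 0.69 ± 0.32 log2 units, which did not pass (adjusted p 0.218, edgeR). The change from before at 48 was 1.41 log2 units smaller in old than in young mice, with an SE of 1.11, and the test of that difference did not pass (adjusted p 0.588). A span of 2 SE around it takes in both a null difference and one larger than the whole old response.

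**Figure D1:**
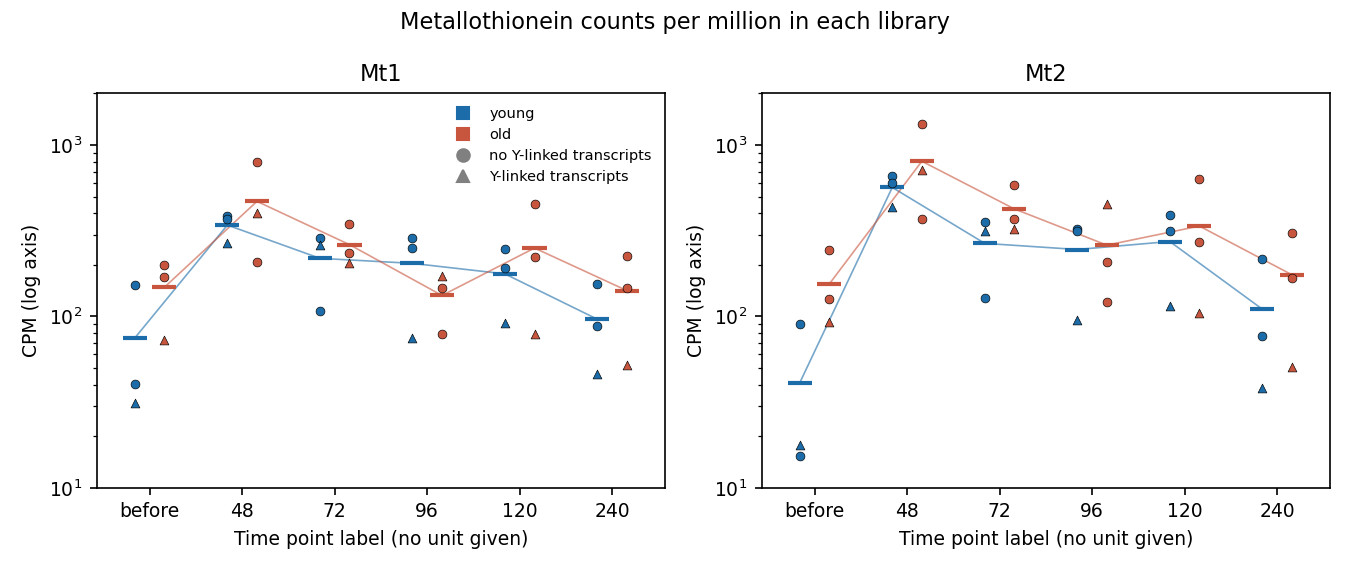
Mt1 (left) and Mt2 (right) in each of the 36 libraries, in CPM on a log axis against the time point label, with young in blue, old in red, triangles for libraries with Y-linked transcripts and bars for group means. The young libraries before hold the lowest mean of both genes (74.9 CPM for Mt1, 41.0 CPM for Mt2) and old mice at 48 the highest (470 and 805 CPM).

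Mt1 moved over a narrower range. Young libraries held 31.2, 153 and 40.4 CPM before and 387, 369 and 269 CPM at 48, without overlap. At 72 they held 287, 108 and 260 CPM, at 96 they held 251, 75.1 and 286 CPM, and at 120 they held 92.2, 248 and 192 CPM. Each of these groups had a library below library 2 before, and none was called. The difference at 72 was 1.55 ± 0.70 (adjusted p 0.129), which passed without library 2 before (2.61, adjusted p 0.0325) and in 1 of 9 alternatives. At 240 the values were 46.2, 87.8 and 155 CPM.

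Old libraries held 73.3, 200 and 171 CPM of Mt1 before. At 48 the values were 401, 800 and 207 CPM, all above those before, and at 72 they were 236, 348 and 204 CPM, again all above. At 96 they were 172, 78.8 and 147 CPM, at 120 they were 221, 452 and 78.6 CPM and at 240 they were 52.1, 226 and 146 CPM. These 3 groups overlapped the range before. The old difference at 48 passed without library 3 at 48 (2.02, adjusted p 0.0444) and in 1 of 9 alternatives. No comparison of the ages called Mt1, and its old mean was higher at 5 of 6 time points and lower at 96.

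Metallothioneins were among the genes that varied most between replicates. The fitted biological coefficient of variation was 60.2% for Mt2 and 53.5% for Mt1, against a median of 18.6% over all genes, which put them at percentiles 97.1 and 95.7. Their lowest counts were 63 (Mt2) and 150 (Mt1), so counting error alone gives a coefficient of variation of at most 12.6% and 8.16%. When the 12 groups were ordered by mean, all 11 pairs of neighbours overlapped for either gene. Only 1 pair, young mice at 48 above old mice at 72, differed by more than the larger SD, for Mt1 and for Mt2 alike.

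Within a group, the same libraries were high or low in both metallothioneins. The deviations of the 36 libraries from their group means correlated at r = 0.97 (rho = 0.96) between Mt1 and Mt2, with an adjusted p of 0.00021 for each, the smallest that 100000 permutations within groups can give over 21 pairs of members. The importer Slc39a14 followed both. Its r was 0.72 with Mt1 (rho = 0.69) and 0.69 with Mt2 (rho = 0.68), with an adjusted permutation p of 0.00224 for each r and 0.00378 for each rho. Without the 2 libraries farthest from the median, r was 0.96 for the metallothionein pair, 0.65 for Mt1 with Slc39a14 and 0.72 for Mt2 with Slc39a14. The other 18 of 21 pairs did not pass by r or by rho.

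These relations also held in the 24 libraries without Y-linked transcripts. There, r was 0.97 for the pair of metallothioneins, 0.87 for Mt1 with Slc39a14 and 0.83 for Mt2 with Slc39a14. An exact permutation test over the 4096 exchanges within groups gave p of 0.000977, 0.00391 and 0.00244. The 12 libraries with Y-linked transcripts hold 1 per group and give no deviation within a group.

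**Figure D2:**
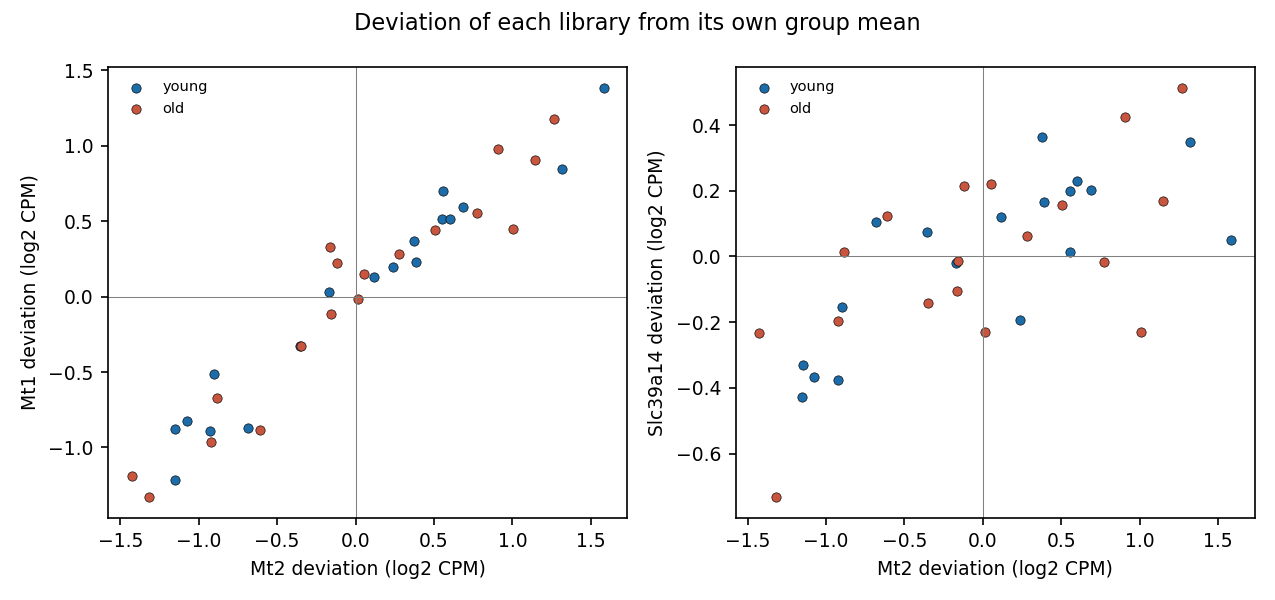
Deviation of each library from the mean of its own group, in log2 CPM, for Mt1 (left) and Slc39a14 (right) against Mt2, with young in blue and old in red. Points rise together along the diagonal in both panels, closely for Mt1 (r = 0.97) and more loosely for Slc39a14 (r = 0.69).

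The libraries with Y-linked transcripts were more often the low ones. Of the 12 groups, the library with Y-linked transcripts was the lowest of its 3 in 9 groups for Mt1, in 8 for Mt2 and in 8 for Slc39a14. It was the highest in 9 of 12 for Slc39a10. The share of all genes with such rank counts was not taken. In an edgeR fit with a term for the split, a comparison chosen after the data had been seen, Mt1 was lower in those libraries by 0.90 ± 0.26 log2 units (log2 change -0.90, adjusted p 0.0338), and Mt1 was the only member called, beside 8.4% of all genes. The Mt2 difference was -0.86 ± 0.33 (adjusted p 0.113) and that of Slc39a14 was -0.24 ± 0.10 (adjusted p 0.156). For Slc39a10 the difference was 0.20 ± 0.17 (adjusted p 0.534). The Mt1 call was lost with no filter on low counts (0.0629) and without any 1 of 8 libraries, with an adjusted p of up to 0.0785. These were library 1 of young mice before, at 120 and at 240, library 2 at 96, and in old mice library 1 before and at 240, library 2 at 48 and library 3 at 120.

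The balance between the metallothioneins shifted as well. The ratio of Mt2 to Mt1 counts needs no scaling between libraries. In young mice before it was 0.573, 0.586 and 0.377, so Mt1 gave more counts than Mt2 in all 3 libraries. At 48 it was 1.70, 1.64 and 1.62. The lowest ratio among the 15 later young libraries was 0.829, above every library before. Ratios were 1.18 to 1.24 at 72, 1.11 to 1.30 at 96, 1.24 to 1.65 at 120 and 0.829 to 1.40 at 240.

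Old mice before had ratios of 1.27, 1.22 and 0.745, above all 3 young libraries. At 48 they were 1.78, 1.66 and 1.80, close together although the CPM values of the same libraries differed widely. Library 1 of old mice at 96 reached 2.63, the highest of the series. The remaining later old libraries lay between 0.975 and 1.67 outside 48.

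The ratio in the 15 later young libraries was 2.58-fold that before (1.37 log2 units, exact two-sided permutation p 0.00123, adjusted p 0.0221 over 18 tests chosen after the data had been seen). That p is the smallest the 816 assignments allow, and the difference held without any 1 library (1.16 to 1.48 log2 units) and without the libraries with Y-linked transcripts (1.51). In old mice the ratio later was 1.43-fold that before (exact permutation p 0.0368, adjusted p 0.138). This difference was 0.27 log2 units without library 3 of old mice before (exact permutation p 0.250). The exact permutation p was also at or above 0.05 without library 2 before or without library 1 or 3 at 48. Between the ages before, 3 libraries against 3 cannot give an exact permutation p below 0.1, which is what the non-overlapping ratios gave (1.06 log2 units higher in old mice).

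**Figure D3:**
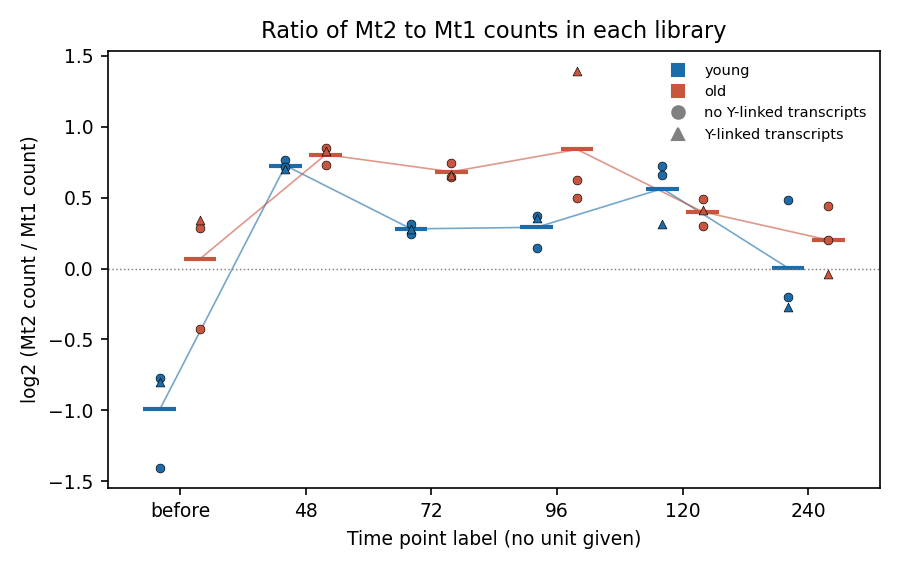
Log2 of the ratio of Mt2 to Mt1 counts in each library against the time point label, with young in blue, old in red, triangles for libraries with Y-linked transcripts and bars for group means. The 3 young libraries before are the lowest 3 of the series (ratios of at most 0.586, against 0.745 for the lowest old library before), and all young libraries at 48 lie between ratios of 1.62 and 1.70.

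Mtf1, the zinc-sensing transcription factor, spanned the narrowest range of the 7 genes. Its 36 values lay between 33.0 and 57.0 CPM, with a median of 44.7 CPM. The fitted changes from before ran from -0.18 to 0.22 log2 units over the 10 later groups, each with an SE of at most 0.14. None was called, and neither was any age difference (-0.10 to 0.19). The group means ran from 39.7 ± 5.89 CPM in old mice at 48 to 52.5 ± 5.07 CPM in old mice at 240, and all 11 neighbours in the order overlapped. Its biological coefficient of variation of 10.96% was at percentile 5.08 of all genes.

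Slc39a14, which brings zinc, manganese and iron into hepatocytes, rose at 48 in old mice by 0.89 ± 0.25 log2 units (adjusted p 0.0105, edgeR). The old libraries held 466, 422 and 398 CPM before and 664, 1046 and 680 CPM at 48. The groups did not overlap, and the rise rested in part on library 2. Without it the difference was 0.68 and the call was lost (adjusted p 0.0707). The summed macrophage markers of old mice lay between 985 and 1449 CPM before and between 309 and 1035 CPM at 48, and 5 of the 12 were called lower. Their part in the old values at 48 was not tested. Fitted on the groups compared alone, the difference was 0.91 and did not pass (adjusted p 0.1004). At 72 the old libraries held 560, 631 and 512 CPM, still all above those before (0.41 ± 0.25, adjusted p 0.302). They held 355, 421 and 484 CPM at 96, 596, 731 and 307 CPM at 120, and 338, 447 and 415 CPM at 240.

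In young mice the highest Slc39a14 values came at 72. The libraries held 436, 420 and 365 CPM before, 431, 535 and 519 CPM at 48, and 626, 477 and 797 CPM at 72. The difference at 72 was 0.64 ± 0.25 and did not pass with TMM scaling (adjusted p 0.0767). It passed in 2 of 9 alternatives. Among these was total-count scaling (0.82, adjusted p 0.0147), which moved the median of all genes by 0.20 in that comparison. Later values were 488, 308 and 477 CPM at 96, 312, 463 and 451 CPM at 120, and 309, 383 and 495 CPM at 240. All later young ranges but that at 72 overlapped the range before.

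At 48 every old library was above every young library for Slc39a14, a 1.61-fold higher mean. The fitted difference was 0.69 ± 0.25, which did not pass (adjusted p 0.0731). It passed without the libraries with Y-linked transcripts (0.82, adjusted p 0.0270) and without library 3 of old mice at 48 (0.79, adjusted p 0.0486). Of all genes, 21.6% did not overlap between the ages at 48 and 11.2% were called. Over the 5 later time points together, Slc39a14 passed in old mice (adjusted p 0.0190), though not without library 2 at 48 (0.112). It did not pass in young mice, where that p was 0.174. The difference in the change at 48 between the ages, 0.61 ± 0.35, did not pass (adjusted p 0.417).

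Slc39a10, a plasma membrane zinc importer, was the least abundant member. It lay between 5.63 and 16.2 CPM in every library but 1. The exception was library 2 of old mice at 48 at 36.1 CPM, beside 10.003 and 8.59 CPM in the other libraries of that group. The difference from before there was 0.62 ± 0.37 (adjusted p 0.227) with that library and -0.33 without it (adjusted p 0.504). With all libraries no comparison called Slc39a10. The test over the later time points together in old mice (adjusted p 0.0939) passed without library 1 or 3 at 48 (down to 0.0145). In either age, 11 of the 15 later libraries were below the lowest of the 3 before, which were 14.6, 12.2 and 12.4 CPM in young and 13.6, 11.4 and 10.7 CPM in old mice. At 72 the old libraries held 7.18, 7.25 and 7.08 CPM, wholly below those before (-0.73 ± 0.39, adjusted p 0.229), as 31.2% of all genes did not overlap in that comparison. The lowest count was 20, which gives a counting error of 22.4%.

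Slc30a1, the plasma membrane zinc exporter and a known target of MTF1, was called in no comparison. Its values lay between 129 and 309 CPM, with a median of 221 CPM. The lowest was library 2 of old mice at 48 (129 CPM), in which Mt2 was highest, while the other libraries of that group held 269 and 256 CPM. Changes from before ran from -0.36 to 0.09 log2 units with an SE of at most 0.21. Group means ran from 195 ± 28.3 CPM in old mice at 96 to 266 ± 26.7 CPM in old mice at 240, with all 11 neighbours overlapping.

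Slc30a10, the manganese exporter, fell in young mice and was the only member called between the ages. The young change was called at 72 (-0.89 ± 0.28, adjusted p 0.0272, edgeR) and at 96 (-1.37 ± 0.28, adjusted p 0.0110). At 72 it was 1 of 2 members called, beside 17.4% of genes, and at 96 it was the only one, beside 1.4%. Averaged over the 6 time points it was higher in old mice by 0.59 ± 0.11 log2 units (adjusted p 0.00187), the only member called, where 5.98% of genes were called.

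Markers of other liver cells moved in the same comparisons. Of 10 stellate cell and fibroblast markers, 4 rose at 72 in young mice (median of the list 0.88 log2 units) and 3 at 96 (median 1.05), with none falling. The collagen gene Col1a1 rose most at 72 (3.79 ± 0.70). Their summed level was 352 to 492 CPM in young mice before, 402 to 962 CPM at 72 and 437 to 961 CPM at 96. All 10 were above 0 in every library of these groups. Of 4 bile duct cell markers tested (8 listed), 2 rose at 72 in young mice, the keratin gene Krt19 (2.36) and Spp1 (1.86), and the list summed to 56.2 to 65.9 CPM before and 57.3 to 302 CPM at 72. Libraries 1, 2 and 3 of young mice at 72 held 44.2, 55.9 and 42.8 CPM of Slc30a10. The stellate list summed to 940, 962 and 402 CPM in them, and the bile duct list to 147, 302 and 57.3 CPM. Also called at 72 in young mice, beside 17.4% of all genes, were endothelial Clec4g (-0.88), Kdr (-0.80) and Tek (-0.65). Cyp2e1 of the hepatocyte list was lower (-1.26), while Marco of the macrophage list (2.87) and S100a9 of the neutrophil list (3.67) were higher. Marco did not stand for its list, whose 12 markers summed to 778 to 971 CPM in young mice before and 661 to 821 CPM at 72. The neutrophil list summed to 3.73 to 5.62 CPM before and 7.13 to 15.1 CPM at 72. In the mean over time points, 3 of the 10 stellate cell and fibroblast markers were lower in old mice, Col1a1 (-0.93), Col3a1 (-0.90) and Col1a2 (-0.84). Markers of other lists were called there too, beside 5.98% of all genes. S100a9 of the neutrophil list (1.70) was higher in old mice. Macrophage Cd163 (-0.85), hepatocyte Cyp2e1 (-0.63) and endothelial Tek (-0.38) were lower. The part of these markers in the Slc30a10 values, and in those of Mt2 at 72 in young mice, was not tested.

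Young libraries held 67.2, 75.4 and 123 CPM of Slc30a10 before and 85.6, 88.7 and 69.2 CPM at 48, where the groups overlapped. They held 44.2, 55.9 and 42.8 CPM at 72 and 22.3, 40.5 and 40.4 CPM at 96. All 6 of these were below the lowest library before. Values stayed low at 120, with 49.9, 41.7 and 40.0 CPM, and at 240, with 53.0, 49.6 and 43.4 CPM, so that 12 of the 15 later young libraries were below the range before. The differences at 120 (-1.01 ± 0.28, adjusted p 0.0998) and 240 (-0.86 ± 0.28, adjusted p 0.486) did not pass. That at 120 passed in 2 of 9 alternatives. Library 3 before, at 123 CPM, weighed on these differences. Without it the change was -0.57 at 72 (adjusted p 0.224) and -1.06 at 96 (adjusted p 0.102). The call at 72 was also lost without library 1 or 3 at 72, and that at 96 without library 1 at 96. With total-count scaling the change at 72 did not pass (-0.69, adjusted p 0.0897), nor did that at 96 when fitted on the groups compared alone (-1.37, adjusted p 0.05005).

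Old libraries held 103, 88.9 and 57.3 CPM before. At 48 they held 105, 152 and 148 CPM, all above those before (0.70 ± 0.28, adjusted p 0.0635). This difference passed without the libraries with Y-linked transcripts (1.05, adjusted p 0.00750), and without library 1 before or library 1 at 48 (0.51 to 0.91 over the 6 omissions, adjusted p down to 0.0344). Values overlapped the range before at 72, with 107, 110 and 56.3 CPM, at 96 (78.2, 76.5 and 89.2 CPM) and at 120 (75.9, 79.3 and 56.1 CPM). At 240, with 73.0, 39.2 and 34.4 CPM, 2 libraries were below that range (-0.76 ± 0.28, adjusted p 0.437). Over the 5 later time points together, Slc30a10 passed in both ages, with an adjusted p of 0.00169 (young) and 0.00770 (old), as 21.4% and 20.5% of genes did. Members passing that test were 2 of 7 in each age, with Mt2 the other in young and Slc39a14 the other in old mice. Fitted on the groups compared alone, both old calls were lost, with an adjusted p of 0.0613 for Slc30a10 and 0.0834 for Slc39a14.

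Set side by side, the old mean of Slc30a10 was 0.940 times the young mean before and 1.00 times at 240. Between these it was 1.66 times at 48, 1.91 times at 72, 2.36 times at 96 and 1.61 times at 120. Every old library was above every young library at these 4 time points. The shares of all genes without overlap there were 21.6%, 8.44%, 20.6% and 16.4%. No other member was separated by age at more than 1 time point.

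Tested one time point at a time, the age difference of Slc30a10 was 0.73 ± 0.28 at 48 (adjusted p 0.0845), 0.94 ± 0.28 at 72 (0.452), 1.25 ± 0.28 at 96 (0.0504) and 0.68 ± 0.28 at 120 (0.394). None passed with the robust fit. The difference at 96 crossed the threshold in 6 of 9 alternatives, among them DESeq2 (1.26, adjusted p 0.00564). Of all 7 members at all 6 time points, 0 age differences were called. An unadjusted p below 0.05 in edgeR's test was reached by 1 member before and 2 at 48. It was reached by 1 each at 72, 96 and 120, and by 0 at 240. The share of all genes at that unadjusted level was not taken, so nothing is read from these counts. The average over time points kept its call in all 8 alternatives and without any 1 of the 36 libraries (0.52 to 0.64, adjusted p at most 0.00426). It was 0.53 log2 units in the libraries with Y-linked transcripts and 0.58 in the others.

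Whether the course of Slc30a10 differed between the ages was tested as an interaction. The test over the 5 later time points did not pass (adjusted p 0.191, edgeR), in a comparison that called 2.76% of genes and 0 of 7 members. The largest single difference in change was 1.33 ± 0.40 at 96 (adjusted p 0.323). The interaction passed without the libraries with Y-linked transcripts (adjusted p 0.0331) and without library 1 of old mice at 240 (adjusted p 0.0439), which itself carried Y-linked transcripts. In the libraries without them, the old minus young difference before was -0.43 log2 units, against 1.43 at 96. In the libraries with Y-linked transcripts, 1 per group, that difference was already 0.61 before and was 0.93 at 96.

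**Figure D4:**
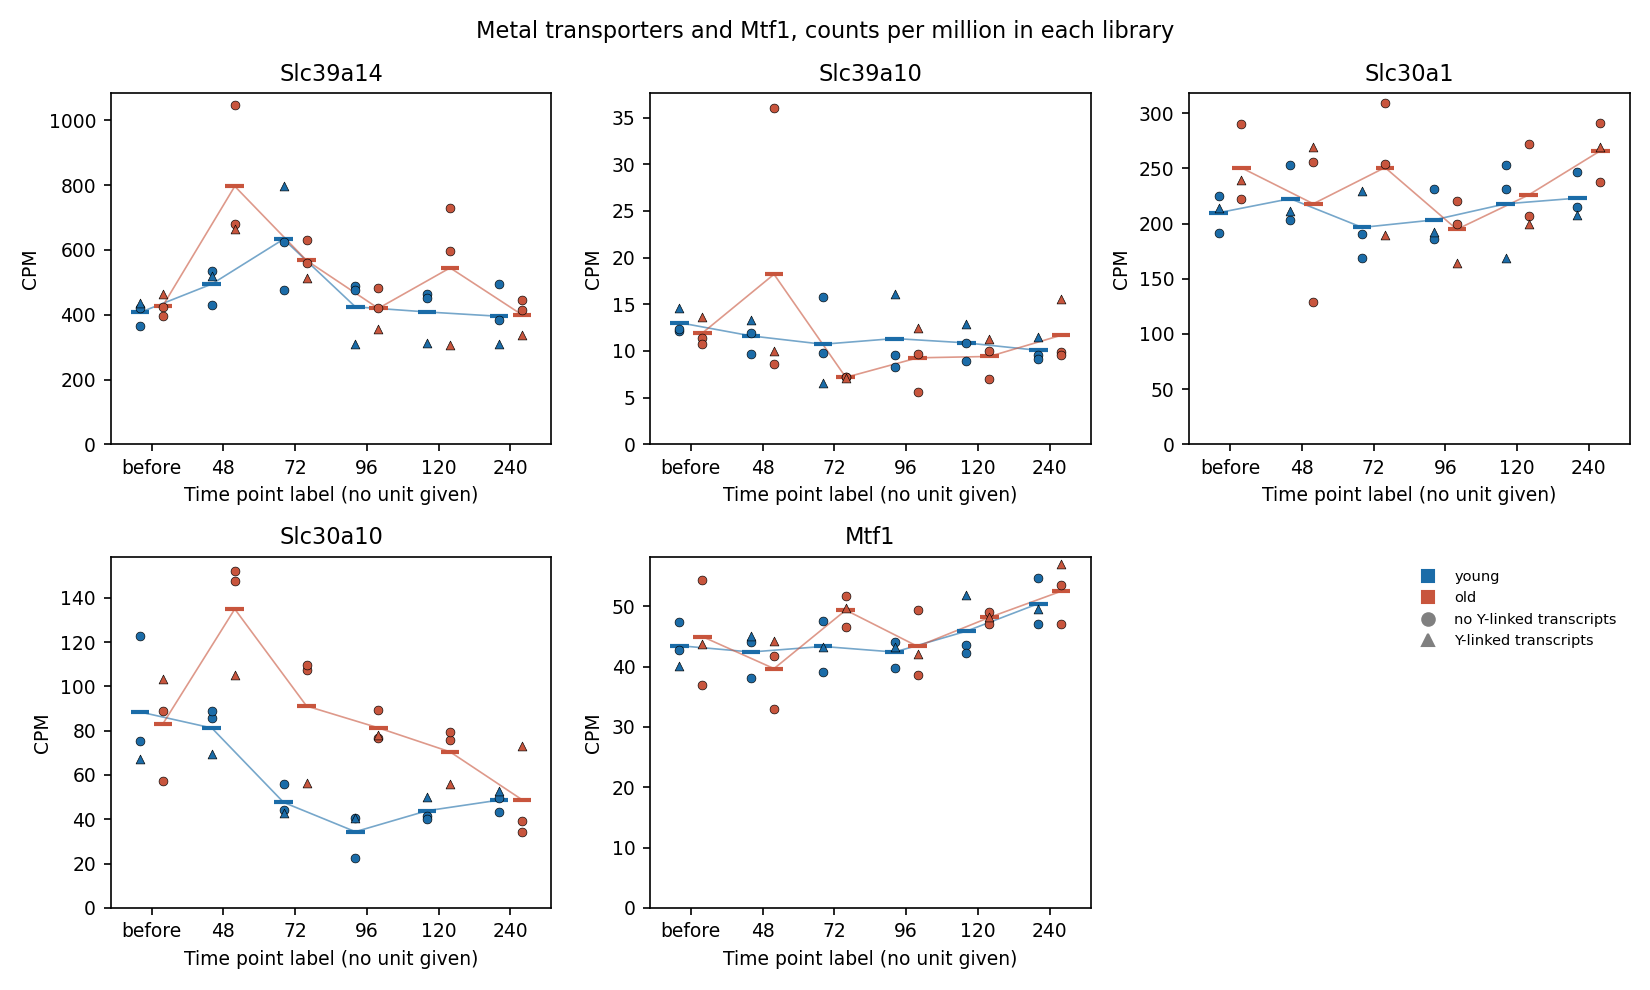
The 4 transporters and Mtf1 in each library, in CPM on linear axes from 0 against the time point label, with young in blue, old in red, triangles for libraries with Y-linked transcripts and bars for group means. Slc30a10 separates the ages at 48, 72, 96 and 120, Slc39a14 at 48, and a lone library at 36.1 CPM sets the Slc39a10 mean of old mice at 48.

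**Figure D5:**
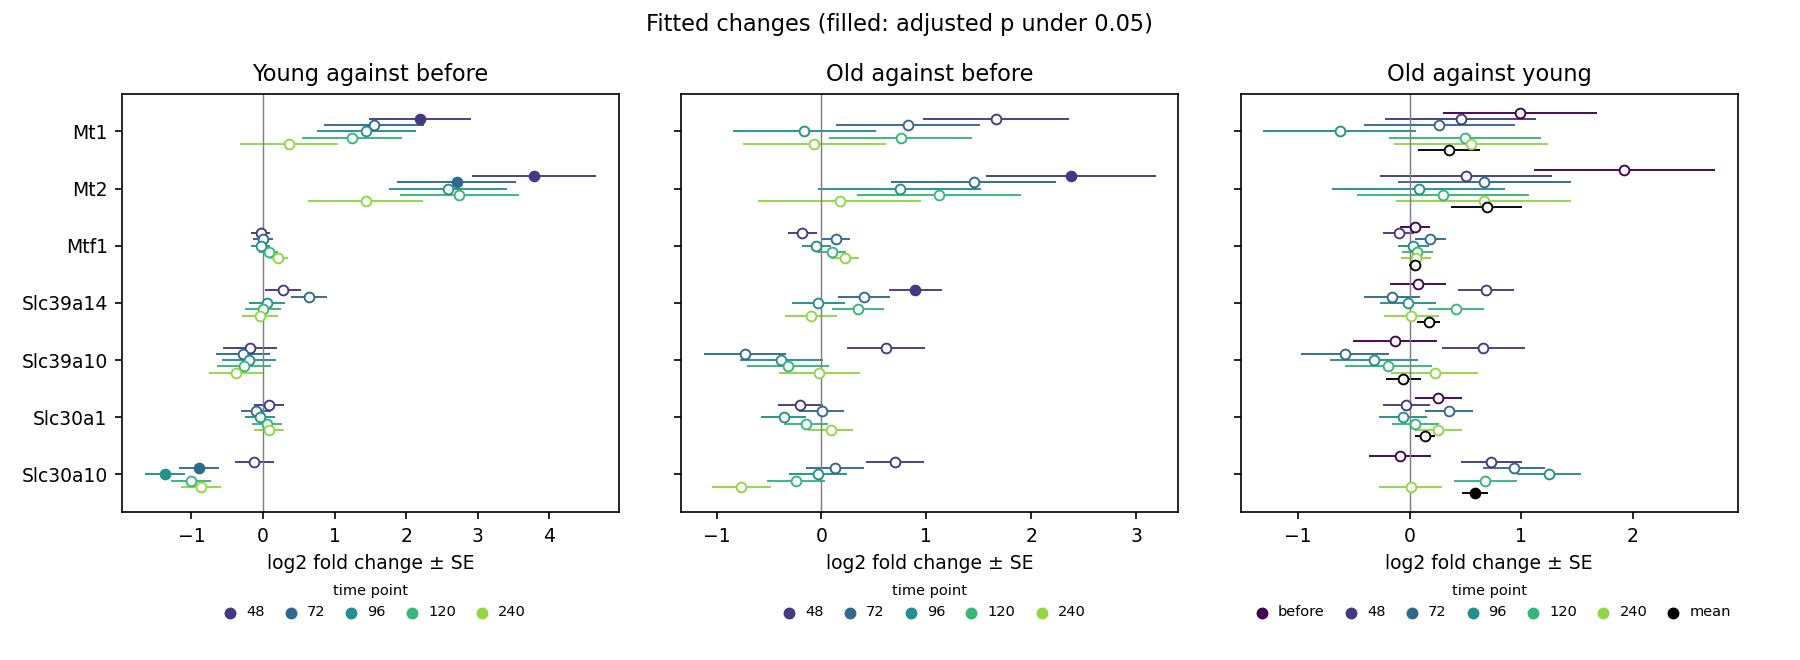
Fitted log2 fold changes with their SE for the 7 members, for each later time point against before in young (left) and old mice (middle) and for the age difference by time point and on average (right), with filled points where the adjusted p was under 0.05. Filled points are Mt1 and Mt2 at 48, Mt2 at 72, and Slc30a10 at 72 and 96 in young mice, Mt2 and Slc39a14 at 48 in old mice, and Slc30a10 for the average over time points.

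Counted over all 7 members, the later time points compared as follows. In young mice 0 members were called at 120 and at 240 (0.246% of genes at 240), while 2 and 1 had an unadjusted p below 0.05 in edgeR's test. In old mice 0 were called at 72, 96, 120 and 240, beside 12.4%, 6.82%, 3.87% and 0.156% of genes. Only Slc30a10 at 240 had an unadjusted p below 0.05 in edgeR's test there. Nothing is read from these unadjusted counts, as the share of all genes at that level was not taken. DESeq2 called 8 young and 2 old differences from before over the 5 time points, against 5 and 2 with edgeR.

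Separation of the libraries was counted as well. In young mice the later libraries did not overlap those before for 2 members at 48, 3 at 72 and 2 each at 96, 120 and 240. The shares of all genes were 41.4%, 36%, 26.2%, 22.7% and 12.7%. In old mice the counts were 4 at 48 and at 72 (31.4% and 31.2% of genes), 1 at 96 (26.9%) and 0 at 120 (21.6%) and 240 (13.4%). Between the ages, the counts were 1 before, 2 at 48, 1 each at 72, 96 and 120, and 0 at 240. The shares of all genes without overlap were 14.4% before, 21.6% at 48, 8.44% at 72, 20.6% at 96, 16.4% at 120 and 10.4% at 240. Nothing is read from member counts near these shares.

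The ages were called different for 0 members at any single time point, beside 0.0595% of genes before, 11.2% at 48, 0% at 72 and at 120, 0.171% at 96 and 0.0149% at 240. The difference in change from before was called for 0 members at each of the 5 time points, by edgeR and by DESeq2 alike. An unadjusted p below 0.05 in edgeR's test was reached by Slc30a10 alone, at 48, 72 and 96, again without a share of all genes at that level. Genes called were 1.38% at 48, 0% at 72 and 240, 0.0149% at 96 and 0.00744% at 120.

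Genes whose levels ran closest to a member over the 36 libraries were taken from 12612 genes, by Pearson's r on log2 CPM, as a description. For Mt2 they were Fgl1 (0.83), Serpina3n (0.81) and Lcn2 (0.81), and for Mt1 they were Sdc1 (0.78), Nnmt (0.77) and Fgl1 (0.77). Lcn2 encodes lipocalin 2, and Serpina3n encodes a serine protease inhibitor, both secreted by the liver in the acute phase response. Slc39a14 ran closest to Fga (0.85), Itih2 (0.82) and Fgg (0.81), of which Fga and Fgg encode fibrinogen chains. Slc30a10 ran closest to Pnrc1 (0.82), Tubb2a (0.81) and B3gat3 (0.81). The closest gene to Slc30a1 was Man1a (0.71) and to Mtf1 it was Klc4 (0.62). The libraries share depth and time points in all of these values.

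The other genes of zinc transport were counted at 48, where 21.9% of all genes were called in young and 24.1% in old mice, and nothing is read from counts near those shares. Of 11 ZIP genes tested (12 listed), 2 rose at 48 in young mice, Slc39a13 (1.12 ± 0.22 log2 units, adjusted p 0.000428) and Slc39a1 (0.64 ± 0.17), and none fell. In old mice 4 rose at 48, among them Slc39a7, which releases zinc from the endoplasmic reticulum (1.09 ± 0.17, adjusted p 5.79e-05), and none fell. The median change of the ZIP list at 48 was 0.25 in young and 0.28 in old mice, beside -0.01 and 0.01 over all genes. Of 6 ZnT genes tested (8 listed), 2 rose at 48 in young mice, among them Slc30a6 (0.63 ± 0.20), and 1 in old mice, Slc30a5 (1.06 ± 0.22). The metallothionein Mt3 was at 0 in 31 libraries and at most at 2 counts, and Mt4 was not analysed here.

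Inflammation, glucocorticoids and oxidative stress are known to induce metallothioneins, and lists of genes for each were counted. Beside these counts, 21.9% of all genes were called at 48 in young and 24.1% in old mice, and counts near those shares are given as a description only. Of 17 acute phase genes, 10 rose at 48 in young mice and 12 in old mice, with 0 falling in either, and with medians of 1.04 and 1.19 log2 units. They included Lcn2 (6.93 ± 0.97 in young, 5.53 ± 0.85 in old) and the serum amyloid gene Saa2 (6.50 ± 1.45 and 4.74 ± 1.33). Of 12 genes induced by glucocorticoids, 0 rose and 3 fell at 48 in young mice, with Dusp1 falling most (-2.45 log2 units), and 3 rose and 2 fell in old mice. Of 11 NRF2 targets tested (12 listed), 2 rose in young mice and 2 fell in old mice at 48. Among 6 other genes of manganese and divalent metal transport, 2 rose at 48 in young mice, Tmem165 (0.98 ± 0.23) and Slc11a2 (0.72 ± 0.24). In old mice 1 fell, the iron exporter gene Slc40a1 (-1.16 ± 0.31). Of 10 copper genes, 2 fell at 48 in young mice, and 2 rose and 1 fell in old mice.

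Within groups, Slc39a14 ran against the mean of the NRF2 list (r = -0.65, rho = -0.70, adjusted permutation p 0.00624 for each over 24 relations of 4 members with 6 lists). With the 2 farthest libraries left out, r was -0.59. The relation did not hold in the 24 libraries without Y-linked transcripts, where r was -0.21 (rho = -0.23, exact permutation p 0.542). The other 23 relations did not pass.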

How the data were processed

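Whole-liver RNA was measured in 36 libraries, 3 for each of 12 groups. Per the labels' protocols, total RNA was taken from frozen tissue with Trizol and a column, and libraries were made after ribosomal RNA depletion with spike-in mixes that differed between the ages (0 spike-in rows were among the values used here). The deposited values are raw counts per gene symbol, 1 file per library. The submitters' processing notes name GRCm38 (mm10), bcl2fastq 2.20.0, Trimmomatic 0.39, FastQC 0.11.9, STAR 2.7.5b, SAMtools 1.10, Picard 2.20.8, deepTools and featureCounts. The annotation, strand setting and handling of reads with several matches are not given in the sources used here. In each file, 27 of 21955 symbols read as dates.

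From the counts, edgeR 4.0.16 in R 4.3.3 was run on all 12 groups together (filterByExpr, TMM scaling, quasi-likelihood fit with robust shrinkage, no covariate). Adjusted p-values are Benjamini-Hochberg over the 13436 genes tested within a comparison, with a threshold of 0.05. The robust option was set after the data had been seen, and the fit without it is among the alternatives. An SE is the log2 fold change divided by the root of its F statistic. CPM are TMM-scaled, and correlations used log2(CPM + 1). The script was tested on simulated data. Alternatives were total-count and median-of-ratios scaling, no filter, DESeq2 1.42.0, a replicate block, a term for Y-linked transcripts, omission of the libraries holding them, only the groups compared, and omission of each library.

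The members and lists were chosen with earlier results of these data known. Named genes are the 7 members, at most 4 called genes per list with the largest change and a mean of at least 1 CPM, and the 3 genes most correlated with each member. Those of Slc39a10 are not reported here. The ratio of Mt2 to Mt1, the split by Y-linked transcripts (a sum above 10 CPM) and the correlations without those libraries were added after the data had been seen. Promoters are RefSeq windows on GRCm38.p6 and gene positions GENCODE M21. Total counts of 2328233 to 6034446 give a counting error of at most 22.4% for any member value, and that covers counting error only.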

Additional observations from a re-analysis of the deposited data

How the results depend on the processing

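Among the 7 members, 2 were called over the later time points in young mice, and 1 without the libraries with Y-linked transcripts. In old mice 2 were called, and 0 with only the groups compared. Differences from before at single time points numbered 5 in young mice, against 8 with DESeq2 and 2 with only the groups compared. In old mice they numbered 2, against 1 with no filter and 0 with only the groups compared. Age differences at single time points numbered 0. They numbered 1 with the replicate block, 1 with the term for Y-linked transcripts, 1 without robust shrinkage, 1 with DESeq2, 1 with only the groups compared and 2 without the libraries with Y-linked transcripts. The interaction gave 0, and 1 without those libraries. Omitting 1 library at a time gave 1 to 3 (young, later points together), 1 to 3 (old), 1 to 6 (young, single time points), 0 to 3 (old), 0 to 1 (age differences) and 0 to 1 (interaction).

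Signs turned for Slc39a10 in old mice at 48, which ran from -0.33 without library 2 to 0.96 log2 units without library 3 (0.62 with all), and for the age difference of Slc30a10 before, from -0.29 to 0.22 (-0.09 with all). Apart from these omissions, 34 results named with a value were recomputed in 303 cases, of which 273 kept direction and side of the threshold, 13 lost the call, 17 gained one and 0 changed sign. Over all 175 member comparisons, 1471 of 1558 values kept direction and side, 13 lost the call, 20 gained one and 54 changed sign, and 0 of those 54 belonged to a called difference. Total-count scaling moved the median of all genes by 0.11 (young 48), 0.20 (young 72), 0.11 (young 96) and 0.12 (old 72).

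The replicate numbers did not meet the bar for pairing the samples, which was a correlation over 0.1 in every pair. So strict a bar can fail even where numbers mark pairs, so it does not decide whether they do. Deviations of libraries with the same number correlated at a mean r of 0.06 over 198 pairs, and over 0.1 in 89 of them. Libraries with different numbers gave a mean r of -0.02 over 396 pairs, and over 0.1 in 145. With the replicate block, the age difference of Slc30a10 at 96 was 1.25 and passed the threshold, and no other call named here changed. Depth limits Slc39a10 most, with 20 counts in its lowest library.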
